A study of Mus musculus with 9 samples.

Results

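The genes described here are the chemokine receptor gene Cxcr2 and 6 genes for chemokines grouped with it as ligands, namely Cxcl1, Cxcl2, Cxcl3, Cxcl5, Cxcl15 and Ppbp. They were chosen by gene symbol, with earlier results of these data known, and make up 7 of the 18984 genes listed. Expression was measured by poly(A) RNA sequencing of whole lung from C57BL/6 mice, collected 24 hours after a single kind of inoculum had been placed in the trachea. The control group received normal saline, the conidia group received conidia of Aspergillus fumigatus (the spores that are inhaled), and the hyphae group received fragments of its hyphae (the filaments that invade tissue). Each group had 3 libraries, and no genetic change is recorded in any of them. The labels give no age, sex, fungal strain or dose. They also leave unstated whether each library is a mouse of its own, so p-values may measure technical spread only.

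CXCR2 is the main receptor by which mouse neutrophils sense CXC chemokines that carry a Glu-Leu-Arg motif near the amino terminus. Epithelial cells, macrophages and the neutrophils themselves release these ligands when NF-kB signalling is triggered by microbes or by cytokines such as interleukin-1, TNF and interleukin-17, and the receptor couples to Gi proteins and is internalised after ligand binding. In the lung this axis is known for recruiting the neutrophils that kill Aspergillus. Cxcl1 (KC), Cxcl2 (MIP-2) and Cxcl3 are the inducible ligands, and Cxcl5 (LIX) is an inducible ligand known from alveolar epithelium and platelets. Cxcl15 (lungkine) is a chemokine of lung epithelium whose receptor is less firmly known. Ppbp encodes the platelet precursor protein that is cleaved to the CXCR2 ligand NAP-2.

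The 6 ligand genes lie in a cluster with Pf4 on mouse chromosome 5, in the RefSeq order Cxcl5, Ppbp, Pf4, Cxcl3, Cxcl15, Cxcl1, Cxcl2, whereas Cxcr2 lies on chromosome 1 next to Cxcr1. Promoter sequence was in the RefSeq table (build GRCm38.p6) for 6 of the 7 genes, all but Cxcl5. The 120 bases before the start of Cxcl1 (chr5:90891125-90891244), Cxcl2 (chr5:90903779-90903898), Cxcl3 (chr5:90785981-90786100) and Cxcl15 (chr5:90794414-90794533), all on the plus strand, are shown because the first 3 genes were higher in every exposed library than in every control while Cxcl15, which stands between them, was not. Capitals mark matches, on either strand, to GGGNNTTTCC, a form of the NF-kB motif.
Cxcl1: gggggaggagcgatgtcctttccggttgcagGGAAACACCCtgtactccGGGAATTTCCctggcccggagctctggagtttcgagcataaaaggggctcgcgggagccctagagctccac
Cxcl2: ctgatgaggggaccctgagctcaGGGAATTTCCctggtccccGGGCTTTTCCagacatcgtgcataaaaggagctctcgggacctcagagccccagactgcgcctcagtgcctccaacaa
Cxcl3: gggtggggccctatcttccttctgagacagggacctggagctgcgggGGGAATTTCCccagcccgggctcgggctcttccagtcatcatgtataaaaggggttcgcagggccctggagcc
Cxcl15: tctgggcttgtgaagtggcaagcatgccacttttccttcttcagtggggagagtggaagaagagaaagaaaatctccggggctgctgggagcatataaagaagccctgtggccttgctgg
Each of the inducible genes Cxcl1, Cxcl2 and Cxcl3 holds the same 10 bases, GGGAATTTCC, on the plus strand, starting 71, 97 and 73 bases before the start of transcription. Cxcl2 holds a further match, GGGCTTTTCC, 78 bases before the start, and Cxcl1 holds one on the minus strand, printed here as GGAAACACCC, 89 bases before the start. The full windows, from 250 bases before to 50 bases after the start, gave no match in Cxcl15, Ppbp or Cxcr2. Of the 32851 promoter windows of 300 bases in the table, 535 (1.63%) held a match and 10 (0.0304%) held more than one. A match is a run of letters and not a measured binding site. Aligned over the 300 bases, the windows of Cxcl1, Cxcl2 and Cxcl3 were 61.0% to 64.3% identical in pairs. All other pairs of the windows, those with Cxcr2 included, were 49.0% to 56.7% identical.

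Summed FPKM (mapped fragments scaled by transcript length and library size) was 492540 to 561250 per library, 12451 to 13730 genes reached 1 FPKM, and the approximate depth was 21000000 to 22300000 fragments. Markers of alveolar type 2 cells (13 of 13 tested; summed FPKM 18748 to 32012 over the 9 libraries), endothelial cells (14 of 14; 1551 to 2584) and club or goblet cells (12 of 13; 32867 to 127841) were present in every library, as the lung label requires. Genes that reached 1 FPKM in at least 3 libraries were tested (13761), and all 7 members passed this filter. Not every control reached 1 FPKM for Cxcl1 (0.34 to 1.78) or Cxcl2 (0.35 to 2.33), and none did for Cxcl3 or Cxcl5. These genes passed only with exposed libraries, so their calls against control, and counts that hold them, are not independent of the filter. The same holds for other genes under 1 FPKM in every control, among them some neutrophil markers. On the log2(FPKM + 1) scale the median of all tested genes differed by −0.07 for conidia against control, −0.37 for hyphae against control and −0.29 for hyphae against conidia. Values after rescaling each library to the median gene are therefore given beside the deposited ones where they matter. Conidia replicate 2 was the lowest of the conidia libraries for Cxcl1, Cxcl2, Cxcl3, Cxcr2 and summed neutrophil markers. Hyphae replicate 1 was the lowest of the hyphae libraries for these and for Cxcl5. Results without either are given below. Many genes were called after hyphae, so counts are read against the share of all tested genes. After hyphae 14.9% of tested genes were called higher than control and 50.0% lower (30.0% and 29.3% after rescaling), and after conidia 0.596% were called higher (0.298% after rescaling).

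Cxcl2 had the largest differences from control of the family. It measured 1.31, 0.35 and 2.33 FPKM in control replicates 1, 2 and 3, 486, 23.2 and 134 FPKM in the conidia replicates, and 150 FPKM, 654 FPKM and 1648 FPKM in the hyphae replicates. Every exposed library was above every control library, by roughly an order of magnitude even in the lowest, while the conidia and hyphae groups overlapped. The difference on the log2(FPKM + 1) scale was 7.97 ± 1.12 (SE, n = 3 against 3) for hyphae against control (limma, adjusted p = 0.000378), the highest of all 13761 tested genes. For conidia against control it was 5.74 ± 1.12, rank 3 among all genes, yet the call was missed (adjusted p = 0.0583).

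Cxcl1 measured 1.78, 0.34 and 0.96 FPKM in the controls, 107, 10.2 and 24.2 FPKM after conidia, and 97.5, 178 and 420 FPKM after hyphae. Conidia replicate 1 was above hyphae replicate 1, and the other conidia libraries were below every hyphae library. Cxcl1 rose by 6.65 ± 0.80 (log2 scale, SE) after hyphae, rank 2 among all genes (adjusted p = 0.000185). Conidia against control gave 4.01 ± 0.80 (95% interval 2.21 to 5.82), which was not called (adjusted p = 0.0595).

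Cxcl3 values were 0.55, 0.21 and 0.94 FPKM in the controls, 162, 9.45 and 31.5 FPKM after conidia, and 6.44, 56.2 and 140 FPKM after hyphae. Unlike Cxcl1 and Cxcl2, it had the same group mean after both fungal forms, 67.7 ± 82.5 FPKM after conidia and 67.5 ± 67.4 FPKM after hyphae (SD, n = 3). Cxcl3 rose by 4.67 ± 1.16 after hyphae (adjusted p = 0.00679), and conidia against control gave 4.63 ± 1.16 (adjusted p = 0.0922). The longest annotated transcripts of Cxcl2 and Cxcl3 share a run of 110 bases, so some reads could be assigned to either gene. No other pair of the ligands shares a run above 23 bases.

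**Figure D1:**
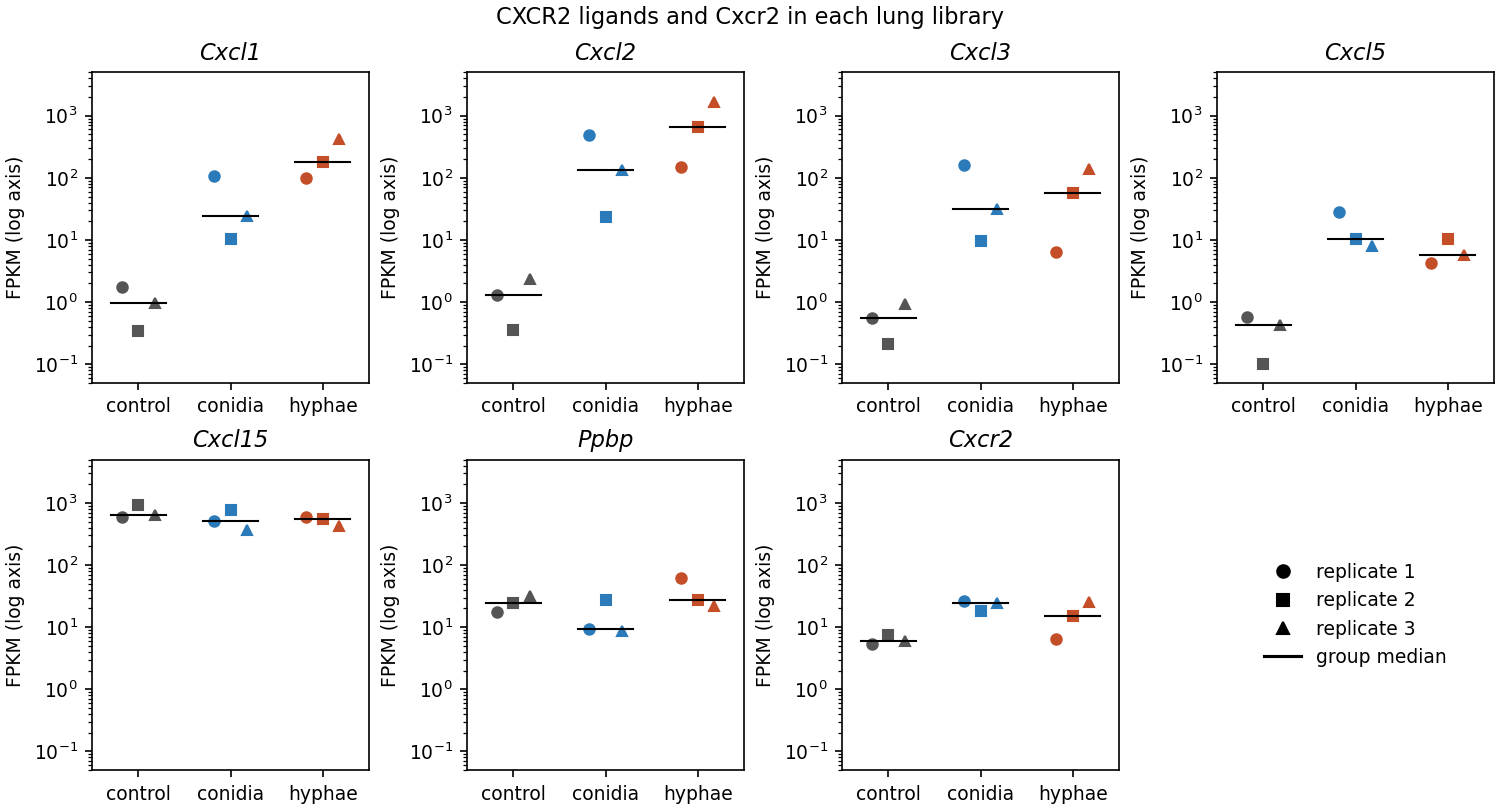
FPKM of each of the 7 genes in each library on a shared log axis, by group, with replicates as symbols and the group median as a line. Cxcl1, Cxcl2, Cxcl3 and Cxcl5 lie higher in all 6 exposed libraries than in the 3 controls, while Cxcl15 and Ppbp overlap between groups.

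Cxcl5 was the sole member called after conidia. It measured 0.58, 0.10 and 0.42 FPKM in the controls, 27.7, 10.3 and 7.91 FPKM after conidia, and 4.2, 10.4 and 5.73 FPKM after hyphae. The conidia libraries tended higher than the hyphae libraries but overlapped with them through hyphae replicate 2. Cxcl5 rose by 3.40 ± 0.44 on the log2 scale after conidia (adjusted p = 0.0244) and by 2.45 ± 0.44 after hyphae (adjusted p = 0.00127). The conidia call is fragile, since leaving out any single control, conidia replicate 1 or 3, or hyphae replicate 2 ended it, with adjusted p up to 0.14. The same omissions left at most 7 calls over all tested genes, against 95 in the main fit, so the loss was not particular to Cxcl5.

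The control values of these inducible genes rest on few fragments, approximately 18, 3 and 13 for Cxcl5 and 10, 4 and 17 for Cxcl3 in control replicates 1 to 3. The added 1 FPKM therefore sets part of the size of their log2 differences and understates them. As group means, Cxcl2 was 1.33 ± 0.99 FPKM in controls, 215 ± 242 after conidia and 817 ± 762 after hyphae (SD, n = 3), and Cxcl1 was 1.03 ± 0.722, 47.3 ± 52.5 and 232 ± 168 FPKM in the same order. The SDs show how far replicates lay apart. Within the conidia group the highest library exceeded the lowest 20.9-fold for Cxcl2, 17.1-fold for Cxcl3, 10.5-fold for Cxcl1 and 3.5-fold for Cxcl5.

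Cxcl15 was by far the most abundant ligand transcript in the control lung and moved little. It measured 594, 937 and 650 FPKM in the controls, 516, 783 and 361 FPKM after conidia, and 602, 552 and 428 FPKM after hyphae. All 3 groups overlapped. The differences from control were −0.44 ± 0.29 for conidia (adjusted p = 0.395) and −0.45 ± 0.29 for hyphae (adjusted p = 0.195), with 95% intervals of −1.08 to 0.21 and −1.10 to 0.20. After rescaling, the hyphae difference was −0.02. Of 13 alveolar type 2 markers, 1 was called higher after conidia, beside 0.596% of all tested genes. After hyphae 1 was higher and 4 lower (4 and 2 after rescaling). Of all tested genes, 14.9% were higher and 50.0% lower after hyphae (30.0% and 29.3% after rescaling).

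Ppbp was called between the fungal forms but not against control. It measured 17.8, 24.3 and 31.6 FPKM in the controls, 9.46, 26.9 and 8.84 FPKM after conidia, and 60.8, 27.6 and 21.9 FPKM after hyphae. Conidia replicates 1 and 3 were below every other library, and hyphae replicate 1 was above every other. The difference was −0.81 ± 0.47 for conidia against control (adjusted p = 0.341) and 0.46 ± 0.47 for hyphae against control (adjusted p = 0.411). Hyphae against conidia gave 1.27 ± 0.47 (95% interval 0.20 to 2.34; adjusted p = 0.0459), a call lost in 10 of 19 alternatives, among them the omission of hyphae replicate 1 (0.85, adjusted p = 0.135).

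Of 17 tested markers of platelets and megakaryocytes, 8 were called higher and 1 lower after hyphae against control (13 and 0 after rescaling), beside 14.9% and 50.0% of all tested genes (30.0% and 29.3% after rescaling). After hyphae against conidia 8 were higher, beside 12.7% of tested genes. Their summed FPKM was 78.5 to 113 in controls, 93.6 to 102 after conidia and 123 to 168 after hyphae, and none of the 19 listed was at 0 in any library. Pf4, which encodes platelet factor 4 and lies next to Ppbp, was 20.7 to 29.1 FPKM in controls, 24.4 to 31.2 after conidia and 25.6 to 38.0 after hyphae. Pf4 did not show the low values that Ppbp had in conidia replicates 1 and 3. The Ppbp to Pf4 ratio was 0.388 and 0.283 there against 0.613 to 1.17 in controls. The part of platelet content in the Ppbp values was not tested.

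The receptor gene Cxcr2 measured 5.43, 7.38 and 5.9 FPKM in the controls, 26.8, 17.9 and 24.9 FPKM after conidia, and 6.5, 15.1 and 25.3 FPKM after hyphae. All conidia libraries were above the controls, whereas hyphae replicate 1 lay inside the control range. The hyphae libraries ranked as they did for Cxcl1, Cxcl2 and Cxcl3. Conidia against control gave 1.73 ± 0.39 (95% interval 0.85 to 2.61), which was not called (adjusted p = 0.0789). Cxcr2 rose by 1.03 ± 0.39 after hyphae (adjusted p = 0.0419; 1.42 and 0.0192 after rescaling), a call lost in 10 of 19 alternatives with adjusted p up to 0.123. The forms did not differ by the test (−0.70, 95% interval −1.58 to 0.18; adjusted p = 0.155).

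Neutrophil markers moved with Cxcr2. The 22 markers, which do not include Cxcr2, summed to 235, 286 and 275 FPKM in the controls, 4041, 1228 and 2949 FPKM after conidia, and 851, 2138 and 5828 FPKM after hyphae. Of the 22, 5 were called higher after conidia (1 after rescaling), and 13 higher and 1 lower after hyphae, beside 0.596% of all tested genes higher after conidia and 14.9% higher and 50.0% lower after hyphae. In a whole-lung sample, fewer cells of a type and less RNA per cell cannot be told apart, and the part of neutrophil number in the Cxcr2 and ligand values was not tested. Relative to the control mean, the median marker was 3.08, 1.89 and 2.58 higher on the log2 scale in conidia replicates 1 to 3 and 0.49, 1.74 and 2.70 higher in the hyphae replicates. Cxcr2 followed the same order within both groups, at 1.95, 1.40 and 1.85 after conidia and 0.06, 1.16 and 1.87 after hyphae.

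**Figure D2:**
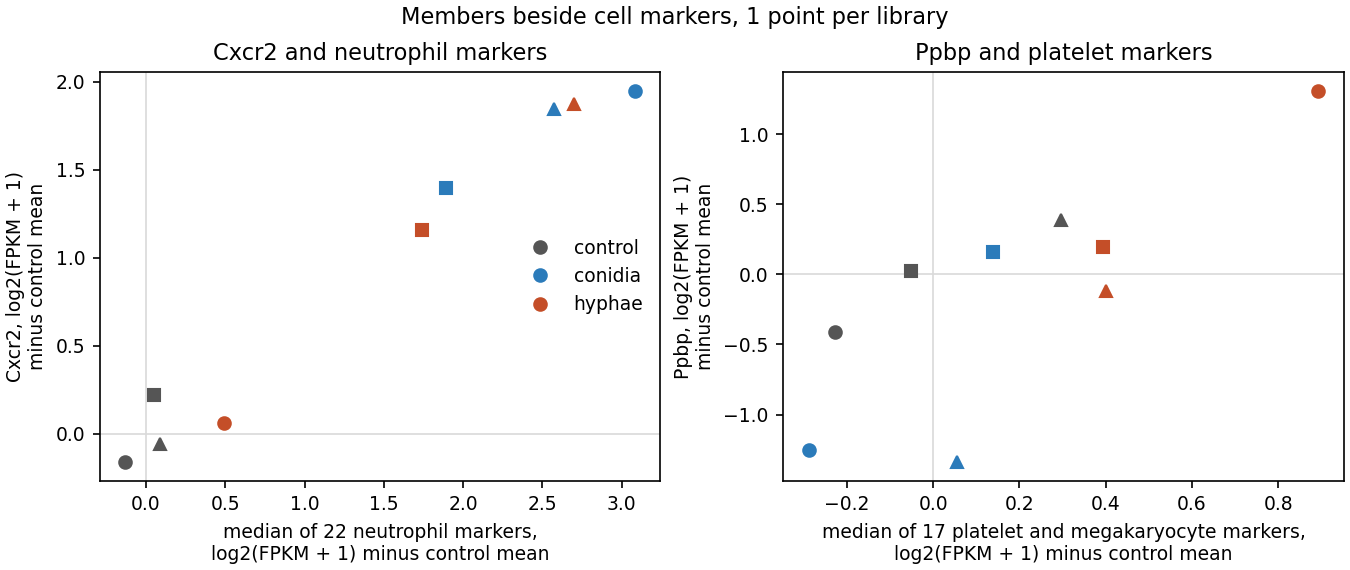
Each point is a library. The left panel sets Cxcr2 against the median of 22 neutrophil markers and the right panel sets Ppbp against the median of 17 platelet and megakaryocyte markers, all as log2(FPKM + 1) minus the control mean, with circle, square and triangle for replicates 1, 2 and 3. Hyphae replicate 1 lies near the controls on the left and highest on both axes on the right.

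The level of Cxcr2 relative to other neutrophil receptors depended on the receptor. Csf3r, the receptor for the neutrophil growth factor G-CSF, was 17.3, 24.5 and 17.5 FPKM in the controls, 103, 88.5 and 108 after conidia and 12.0, 25.9 and 44.1 after hyphae. The Cxcr2 to Csf3r ratio was 0.302 to 0.336 in controls, 0.202 to 0.259 after conidia and 0.54 to 0.582 after hyphae, so that the 3 groups did not overlap. The receptor ratios were chosen after their values were seen. Exact two-sided permutation tests of 3 against 3 libraries gave p = 0.1 for each pair of groups, the smallest this design allows (adjusted 0.171 over 12 such tests). Of the tested genes, 3.71% had a ratio to Csf3r that was higher in every hyphae library than in all conidia and control libraries. Against C5ar1, the receptor for C5a, the ratio overlapped throughout, at 1.67 to 2.01 in controls, 1.22 to 2.25 after conidia and 1.18 to 2.19 after hyphae (exact permutation p = 0.7 to 0.9). Against the formyl peptide receptor gene Fpr1 it was 0.686 to 2.28 in the control and conidia libraries and 3.17 to 8.02 after hyphae. Among receptors, the share of all genes with such a separation was computed for Csf3r alone.

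Cxcr1, the neighbouring gene for a related chemokine receptor, was higher after conidia as Cxcr2 was, but not after hyphae. It was 0.20, 0.46 and 0.68 FPKM in the controls, 1.99, 2.14 and 2.62 after conidia and 0.11, 0.02 and 0.23 after hyphae. Cxcr1 rose by 1.18 on the log2 scale after conidia (adjusted p = 0.0244), gave −0.36 for hyphae against control (adjusted p = 0.0649) and fell by 1.54 from conidia to hyphae (adjusted p = 0.000112). The Cxcr1 to Cxcr2 ratio fell below both other groups in every hyphae library (0.00133 to 0.0169 against 0.0368 to 0.119), again with an exact permutation p = 0.1 for hyphae against either group. The lowest Cxcr1 values are near the limit of the 2 deposited decimals. Cxcr1 reached 1 FPKM only in the conidia libraries. It passed the filter through them, so its calls involving conidia are not independent of that filter.

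**Figure D3:**
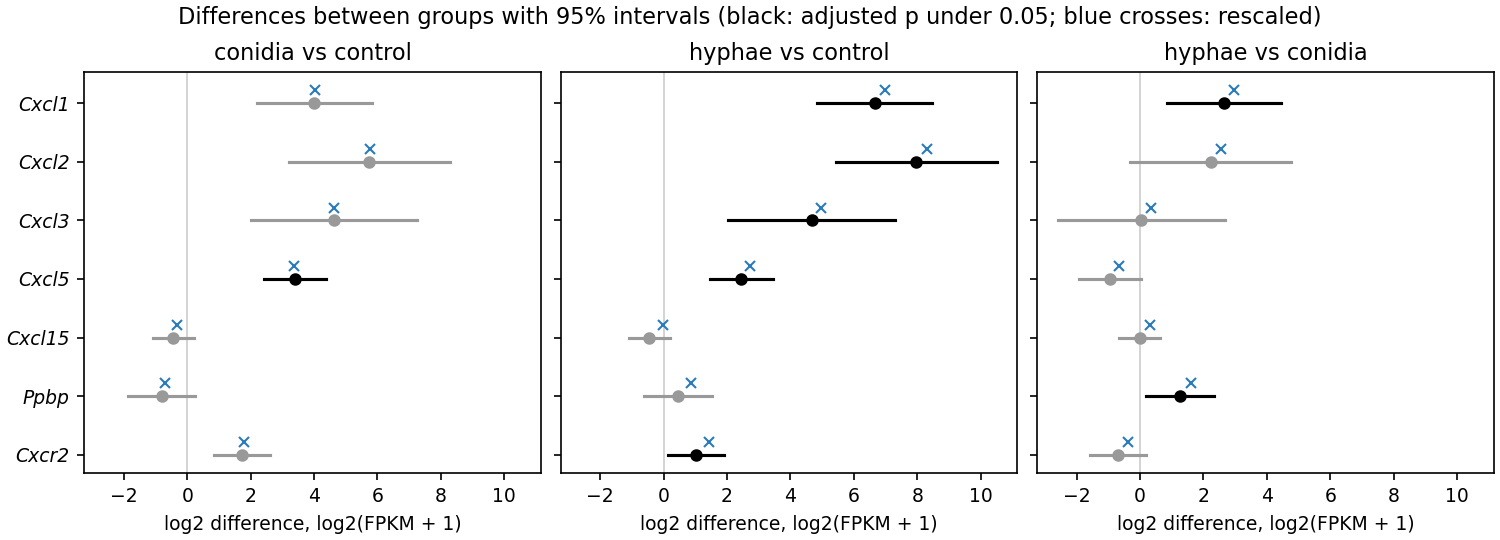
Differences on the log2(FPKM + 1) scale for each gene in the 3 comparisons, with 95% intervals from limma, black where adjusted p was under 0.05 and grey otherwise, and blue crosses for the rescaled values. The intervals of Cxcl1, Cxcl2 and Cxcl3 are the widest, and in the conidia panel Cxcl5 alone is black.

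Counted over the 7 genes, 1 was called higher after conidia, against 0.596% of all tested genes, and 5 had all conidia libraries above all controls, against 12.0% of tested genes. All 5 had an unadjusted p under 0.05, against 21.1% of tested genes. After hyphae 5 were called higher against 14.9% of tested genes (30.0% after rescaling, with 5 members called), and 4 did not overlap with control, against 17.3%. Between the forms, Cxcl1 (2.64 ± 0.80, 95% interval 0.83 to 4.45, adjusted p = 0.0204) and Ppbp were called higher after hyphae, against 12.7% of tested genes, and no member separated hyphae from conidia without overlap, against 14.8%. The median difference of the 7 genes was 3.40 for conidia and 2.45 for hyphae against control, beside −0.07 and −0.37 over all tested genes. These comparisons share the control libraries.

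The low number of conidia calls depended on single libraries. Without conidia replicate 2, the conidia calls numbered 5 of 7 (Cxcl1, Cxcl2, Cxcl3, Cxcl5 and Cxcr2, adjusted p 0.00736 to 0.0361), as calls over all genes rose from 95 to 1503 (11.0% of genes tested), while Cxcl1 was no longer called between hyphae and conidia (1.90, adjusted p = 0.0732). Without hyphae replicate 1, Cxcl2, Cxcl5 and Cxcr2 were called after conidia, as calls over all genes rose to 260 (1.90%), and Cxcl2 was called between the forms (3.15, adjusted p = 0.0438). Both of these libraries had been singled out as the lowest of their group for most members. Leaving out any single control, conidia replicate 1 or 3, or hyphae replicate 2 instead left 0 members called after conidia. Without hyphae replicate 3, Cxcl5 and Cxcr2 were called. For hyphae against control, Cxcl1, Cxcl2, Cxcl3 and Cxcl5 remained called without any 1 of the 9 libraries. For Cxcl2 between the forms, the interval of −0.31 to 4.76 around 2.23 (adjusted p = 0.119) allows both no difference and a large one. For Cxcl5 the value was −0.95 (−1.94 to 0.04; adjusted p = 0.0928), and for Cxcl3 it was 0.04 (−2.59 to 2.67).

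The make-up of the ligand transcripts changed with exposure. FPKM is scaled by transcript length, so levels of different genes may be summed. The 6 ligands summed to 616, 962 and 686 FPKM in the controls, 1309, 864 and 567 after conidia and 921, 1479 and 2663 after hyphae. Cxcl15 made up 94.7% to 97.4% of this sum in controls, 39.4%, 90.7% and 63.6% after conidia and 65.3%, 37.3% and 16.1% after hyphae. In 2 hyphae libraries and 1 conidia library, the other 5 ligands together thus outweighed it.

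Leaving Cxcl15 aside, the other 5 ligands summed to at most 36.2 FPKM in controls, 793, 80.1 and 207 after conidia and 319, 927 and 2235 after hyphae. Ppbp held 80.8% to 96.0% of that sum in controls and at most 33.6% in any exposed library. Cxcl2 was the largest of the 5 in 5 of the 6 exposed libraries, at 47.1% to 73.7%. In conidia replicate 2 it held 29.0% and Ppbp held 33.6%. Cxcl1 held 11.7% to 13.5% after conidia and 18.8% to 30.5% after hyphae, while Cxcl3 held 11.8% to 20.4% and 2.02% to 6.26%. Cxcl5 held 3.49% to 12.8% after conidia and 0.256% to 1.32% after hyphae.

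**Figure D4:**
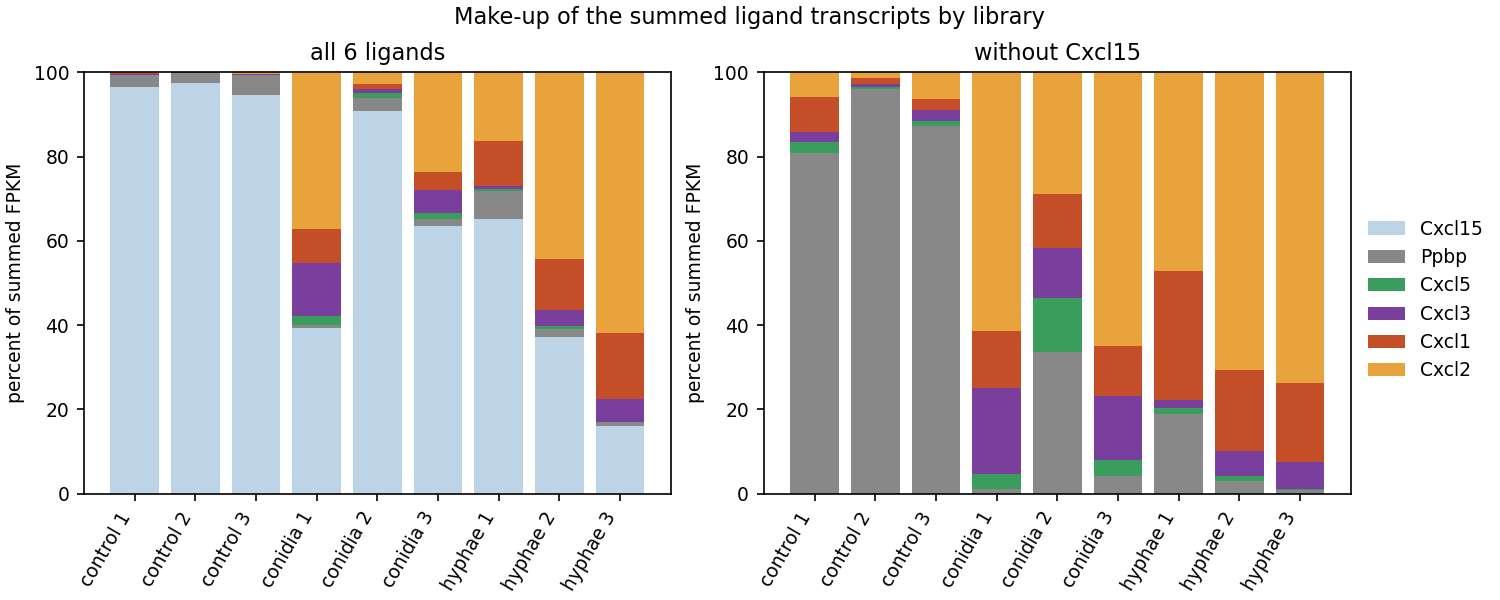
Stacked bars give the percent of summed FPKM held by each ligand in each library, for all 6 ligands on the left and for the 5 without Cxcl15 on the right. Cxcl15 fills nearly all of the control bars on the left, Ppbp most of them on the right, and Cxcl2 most of the right-hand bars in 4 of the 6 exposed libraries.

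Ratios within a library compare the ligands with each other and do not depend on scaling between libraries. All 15 ligand pairs were compared, and 6 did not overlap between hyphae and conidia. They were Cxcl1 and Cxcl2, each against Cxcl3 and Cxcl5, and Cxcl5 and Cxcl15, each against Ppbp. The ratios to Ppbp were lower after hyphae. The share over all gene pairs was not computed, and for ratios to Cxcl1 a separation was common (49.6% of tested genes, below). The Cxcl1 to Cxcl5 ratio was 2.29 to 3.40 in controls and 0.993 to 3.88 after conidia but 17.1 to 73.3 after hyphae. The Cxcl2 to Cxcl5 ratio was 2.26 to 17.6 after conidia and 35.8 to 288 after hyphae. Hyphae libraries thus held more Cxcl1 and Cxcl2 per unit of Cxcl5 in every case.

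The same held against Cxcl3. The Cxcl1 to Cxcl3 ratio was 0.663, 1.08 and 0.77 after conidia and 15.1, 3.17 and 3.0 after hyphae, with controls at 1.02 to 3.24. The Cxcl2 to Cxcl3 ratio was 1.67 to 2.48 in controls, 2.46 to 4.26 after conidia and 11.6 to 23.3 after hyphae. Between Cxcl1 and Cxcl2 the ratio overlapped (0.181 to 0.439 after conidia and 0.255 to 0.648 after hyphae; exact permutation p = 0.5). Each separated pair reached the smallest exact two-sided p of the design, 0.1, and 0.173 once adjusted over the 45 tests. Of all tested genes, 49.6% had a ratio to Cxcl1 that was lower in every hyphae library than in every conidia library, so the separation of Cxcl3 and Cxcl5 from Cxcl1 is shared with about the same share of other genes. Such a share was not computed for ratios to the other ligands.

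**Figure D5:**
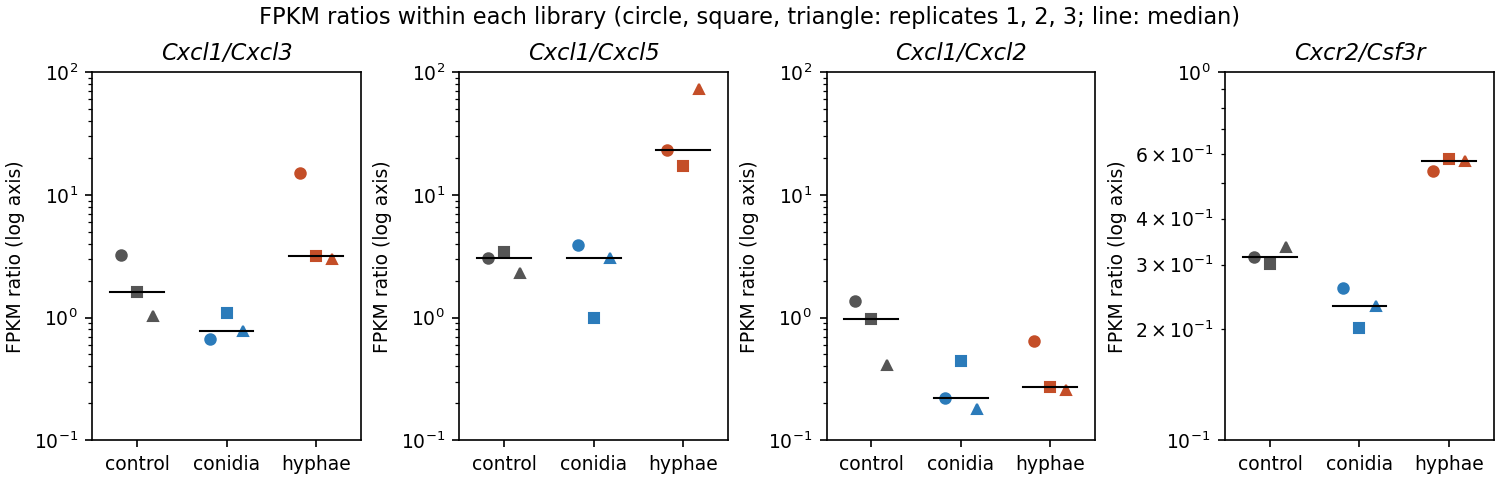
FPKM ratios within each library for 3 ligand pairs and for Cxcr2 against Csf3r, on log axes that span 0.1 to 100 for the ligands and 0.1 to 1 for the receptors. The hyphae libraries lie above the conidia libraries in 3 panels and overlap with them for Cxcl1 against Cxcl2.

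The genes with the most similar profiles over the 9 libraries were found by the root mean square difference between profiles of log2(FPKM + 1) minus the control mean. They are given as a description of libraries that share depth and cell content. Cxcl1 was nearest to Il1r2, the decoy receptor for interleukin-1 (0.82), Mt2, a metallothionein (0.85), and Ngp, a neutrophil granule protein (0.90), with Cxcl3 at rank 6 and Cxcl2 at rank 7. Cxcl2 had Cxcl1 as its nearest gene (1.37), followed by Il1r2 (1.78) and Ngp (1.84). Cxcl3 was nearest to the chemokine gene Ccl4 (0.64) and to S100a9 (0.70) and S100a8 (0.73), which encode the neutrophil calprotectin subunits.

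Cxcl5 was nearest to AA467197 (0.62), Clec4e, a receptor that senses fungal glycolipids (0.64), and Tnfrsf9 (0.71). All 3 of these, like Cxcl5, had higher means after conidia than after hyphae. Cxcr2 was nearest to the Fc receptor gene Fcgr3 (0.25), the C5a receptor gene C5ar1 (0.27) and the myeloid lectin gene Clec5a (0.27). C5ar1 was 3.15 to 3.68 FPKM in controls, 7.95 to 21.9 after conidia and 2.97 to 21.4 after hyphae. Cxcl15 (nearest to Xlr4a, Amph and Ccnb1, 0.15 to 0.20) and Ppbp (nearest to Pla2g1b, Ghrl and Pltp, 0.39 to 0.42) were nearest to genes called in neither comparison with control, apart from Ccnb1 after hyphae (−0.56, adjusted p = 0.0436).

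Genes next to the ligand cluster differed among themselves in direction and size. Upstream of Cxcl5, Rassf6 was 3.58 to 4.07 FPKM in controls, 2.75 to 3.78 after conidia and 3.43 to 4.46 after hyphae. Beyond Cxcl2, Mthfd2l, a mitochondrial folate enzyme, was 3.7 to 3.95 FPKM in controls and 2.52 to 2.77 after hyphae (−0.40, adjusted p = 0.00805; −0.07 after rescaling). Of the epidermal growth factor family genes that follow, Ereg rose from 0.06 to 0.12 FPKM in controls to 1.3 to 4.53 after hyphae (1.58 on the log2 scale, adjusted p = 0.00675). The added 1 FPKM understates this difference. Ereg was under 1 FPKM in every control and passed the filter through exposed libraries, so its call is not independent of that filter. The ratio of Ereg means, 27.1, lay between those of Cxcl5 (18.5) and Cxcl3 (119). After conidia Ereg was 0.26 to 2.13 FPKM (0.70, limma adjusted p = 0.323). Areg was 4.88 to 9.47 FPKM in controls and 8.33 to 12.6 after hyphae (0.45, adjusted p = 0.129).

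Among the cytokines that induce these ligands and the receptors for those cytokines, 11 of 18 tested genes rose and 2 fell after hyphae (11 and 0 after rescaling; median difference 1.34), and 3 rose after conidia (0 after rescaling, and 12 with an unadjusted p under 0.05). Over all tested genes 14.9% rose and 50.0% fell after hyphae (30.0% and 29.3% after rescaling), with a median of −0.37, and 21.1% had an unadjusted p under 0.05 after conidia. Csf3, which encodes G-CSF, rose by 5.14 after hyphae (14.6, 44.8 and 80.4 FPKM against 0.08 to 0.12 in controls), with 1.87 to 35.0 FPKM after conidia (3.04, adjusted p = 0.116). Tnf rose after both forms, by 3.85 after conidia (adjusted p = 0.0416; 0.0565 after rescaling) and by 4.03 after hyphae. Il1b was 6.53 to 10.7 FPKM in controls, 56.5 to 298 after conidia (3.63, adjusted p = 0.0865) and 16.2 to 216 after hyphae (2.87, adjusted p = 0.018). Il6 rose by 4.26 after hyphae, and Il17a did not reach the filter, with at most 4.74 FPKM in hyphae replicate 3. Csf3, Tnf and Il6 were under 1 FPKM in every control and passed the filter through exposed libraries. Their calls, and the counts above that hold them, are not independent of that filter. Csf3r and Tnfrsf1a, a TNF receptor gene, completed the conidia calls (2.29 and 0.72).

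Of 20 transcription factors and NF-kB regulators that act on such genes, 17 rose and 1 (Klf2, −0.57) fell after hyphae, with a median difference of 2.17, and 18 rose after rescaling, beside 14.9% of all tested genes that rose, 50.0% that fell and 30.0% that rose after rescaling. After conidia none was called by limma, and 8 had an unadjusted p under 0.05, all higher, beside 21.1% of all tested genes in either direction. Fosl1, an AP-1 subunit, rose by 4.44, the stress factor Atf3 by 4.37, and Tnfaip3, which restrains NF-kB, by 4.13. Fosl1 was under 1 FPKM in every control (0.1 to 0.18), so its call is not independent of the filter. Nfkbiz, a nuclear NF-kB cofactor, was 9.25 to 16.5 FPKM in controls, 15.6 to 48.6 after conidia (0.99, adjusted p = 0.27) and 55.5 to 181 after hyphae (2.83, adjusted p = 0.00103).

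Ligand messages are also controlled by decay. Of 15 tested regulators of mRNA stability, 7 rose and 4 fell after hyphae (10 and 3 after rescaling), beside 14.9% and 50.0% of all tested genes (30.0% and 29.3% after rescaling). None was called after conidia, and 5 had an unadjusted p under 0.05 (4 of them higher), beside 21.1% of all tested genes. Zc3h12a, the RNase regnase-1, was 6.08 to 7.06 FPKM in controls, 15.0 to 45.3 after conidia (1.72, adjusted p = 0.0702) and 53.7 to 95.9 after hyphae (3.39, adjusted p = 0.000122). Zfp36, which encodes tristetraprolin, a protein that promotes decay, was 120 to 158 FPKM in controls, 133 to 265 after conidia (0.42, adjusted p = 0.567) and 590 FPKM, 1333 FPKM and 2002 FPKM after hyphae (3.06, adjusted p = 0.000325). For both genes every hyphae library was above every control library. Arid5a, a stabiliser of some cytokine messages, rose by 1.89.

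Other CXC chemokines were called in both directions. Of 8 tested, 2 rose and 2 fell after hyphae (4 and 1 after rescaling), beside 14.9% and 50.0% of all tested genes (30.0% and 29.3%). None was called after conidia, and 2 had an unadjusted p under 0.05, near the 21.1% of all tested genes. The interferon-induced Cxcl10 rose by 3.64 after hyphae, whereas Cxcl12, the ligand of CXCR4, fell by 1.24 and Cxcl17, a mucosal chemokine, fell by 1.47, a call lost on rescaling (adjusted p = 0.0623). Of 12 tested receptors for other neutrophil attractants, 1 rose after conidia (Cxcr1), beside 0.596% of all tested genes. After conidia 8 had an unadjusted p under 0.05, all higher, beside 21.1% of all tested genes in either direction. After hyphae 1 rose and 3 fell (2 and 2 after rescaling), no more than the share of all tested genes. Cxcr4, which retains neutrophils in bone marrow, was 40.6 to 43.2 FPKM in controls, 29.8 to 43.1 after conidia and 5.86 to 14.7 after hyphae (−1.89, adjusted p = 0.000573). Hcar2, a niacin and butyrate receptor, rose by 1.70, and the C3a receptor gene C3ar1 fell by 0.90. Between the forms, 8 of the 12 were lower after hyphae (5 after rescaling), beside 42.5% of all tested genes (25.4% after rescaling).

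Atypical receptors bind chemokines without G protein signalling, and 2 of 5 tested rose and 1 fell after hyphae, beside 14.9% and 50.0% of all tested genes. Ackr3, which scavenges CXCL12, rose by 2.86 (133 to 167 FPKM against 16.5 to 22.8), Ccrl2 rose by 1.63 and Ackr4 fell by 1.75. Ackr1, the receptor on venules that carries CXC ligands across the endothelium, was at most 2.57 FPKM in any library and was not called against control (0.58 after conidia, adjusted p = 0.322; −0.30 after hyphae, adjusted p = 0.427). After conidia no atypical receptor was called. An unadjusted p under 0.05 was found for 3 (2 higher and 1 lower), beside 21.1% of all tested genes. Of 31 genes for signalling and internalisation of such receptors, 4 rose and 11 fell after hyphae (5 and 6 after rescaling), no more than the 14.9% and 50.0% of all tested genes (30.0% and 29.3%). None was called after conidia, and 6 had an unadjusted p under 0.05, all higher, no more than the 21.1% of all tested genes in either direction. Rgs2 (fell by 1.46), Plcb2 (fell by 1.33) and the arrestin gene Arrb1 (fell by 1.24) had the largest such differences.

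Genes for proteins that trim or display the ligands completed the axis. Of 9 tested, 2 rose after conidia and 4 rose and 1 fell after hyphae (5 and 0 after rescaling), beside 0.596% of all tested genes that rose after conidia and 14.9% and 50.0% that rose and fell after hyphae. The neutrophil collagenase gene Mmp8, whose product can cleave CXCL5, rose by 3.17 after conidia (adjusted p = 0.047; 0.0593 after rescaling) and by 3.89 after hyphae, and the gelatinase gene Mmp9 rose by 1.92 after hyphae. Sdc4, a heparan sulfate proteoglycan to which chemokines bind, rose by 2.15 after hyphae. Timp1, an inhibitor of these proteases, rose by 3.33 after conidia (adjusted p = 0.0244) and was 16.1 to 21.8 FPKM after hyphae against 11.6 to 19.9 in controls (0.33, adjusted p = 0.456). Mmp8 and Mmp9 are also among the 22 neutrophil markers given above.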

How the data were processed

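The values used are FPKM with 2 decimals, deposited by the authors as 1 file per library, per the file headers, for 3 control, 3 conidia and 3 hyphae libraries. Per the submitters' processing notes, HISAT, Bowtie2 and the build mm9 were used, in roles and versions that are not given in the sources used here; neither is the FPKM software. The files hold no counts. Approximate fragments were derived from the spacing of low values and transcript lengths, assuming 150-base fragments; values near 0 are the least precise.

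FPKM were transformed to log2(FPKM + 1). One limma 3.58.1 trend model with robust moderation (R 4.3.3), tested on simulated data, held all 9 libraries; tests were two-sided, Benjamini-Hochberg adjusted over 13761 genes that reached 1 FPKM in 3 or more libraries, and called under 0.05. Intervals cover 95%. Rescaling used median-of-ratios factors. Ratios were tested by exact permutation (Python 3.11.15). Alternatives were other scalings, pseudocounts, filters, library weights, blocks and omission of each library.

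The genes and lists were chosen with earlier results of these data known. Named genes are all members, their 3 nearest profiles, chromosomal neighbours, genes singled out by role, and up to 3 called genes per list with the largest differences. Other genes named, and the receptor and platelet ratios, were chosen after their values were seen. Promoters are from RefSeq (GRCm38.p6); no other coordinates are given because the files name mm9.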

Additional observations from a re-analysis of the deposited data

How the results depend on the processing

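The number of members called for conidia against control (1) was 3 with a pseudocount of 0.1, 2 with the 2 groups alone, 7 with library weights (arrayWeights, weights 0.255 to 6.19), 0 with the replicate block plus rescaling and 0 when 1 FPKM was required in all 9 libraries, a filter that tests only Cxcl15, Ppbp and Cxcr2. It ranged from 0 to 5 when single libraries were left out, as calls over all genes ranged from 0 to 1503. Over all genes the calls were 95 in the main fit, 47 after rescaling and 5031 with library weights. The 7 members called with library weights were not all higher, since Cxcl15 (−1.019) and Ppbp (−1.312) were called lower after conidia. With these weights Cxcl15 was also called lower after hyphae against control (−0.527), and Cxcr2 lower after hyphae against conidia (−0.655). For hyphae against control (5) the strict filter gave 1, and the other alternatives gave 4 to 6. For hyphae against conidia (2) the count was 1 without a filter, 1 with the strict filter, 1 with the 2 groups alone, 5 with library weights and 0 to 2 without single libraries. The fit with the replicate block called 1, 5 and 1 members in the 3 comparisons, so that Ppbp between the forms was lost (adjusted p = 0.0727). No clear pairing by the shared replicate numbers was seen. Same-numbered correlations ran from −0.312 to 0.425, and 2 of 9 libraries correlated best with their own number. With 3 libraries a group this check is weak and cannot exclude pairing. Directions changed only for 3 members between hyphae and conidia, none of them called there in the main fit. Cxcl15 (−0.01) was 0.32 after rescaling, with and without the block, 0.49 with library weights (called, limma adjusted p = 0.0338), and −0.29 to 0.27 without single libraries. Cxcl3 (0.04) was −0.90 to 1.24 without single libraries, and Cxcl5 (−0.95) was 0.13 with library weights. Without conidia replicate 3, Cxcl5 was called lower after hyphae (−1.29, limma adjusted p = 0.0463). The causes were not tested. With 3 libraries a group and up to 20.9-fold spread within a group, differences of the inducible ligands between the forms are poorly bounded.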
